A study of Mus musculus with 6 samples.

Results

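The open chromatin of wild type (WT) inguinal preadipocytes was described from 119215 sites of the mouse genome (GRCm38, mm10). A site was a merged interval of the WT peak lists that held a peak from each of the 3 WT libraries. The 3 lists merged into 214567 intervals, of which the sites were 55.6%, and all 6 lists of the series, which also covers cells lacking both Hmgn1 and Hmgn2, merged into 267471. The cells were preadipocytes from inguinal white fat of WT C57BL/6 mice, grown on collagen and taken at day 0, before any differentiation medium. They were assayed by ATAC-seq, in which the transposase Tn5 cuts accessible DNA and tags it for sequencing. The knockout lists were used for the count over the whole series and for nothing else. The labels do not say whether the 3 cultures came from separate mice, so the spread between libraries may be technical. The cells were grown in culture, and such a culture can hold other cells of the tissue.

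Preadipocytes are fibroblast-like progenitors that commit to the fat lineage and fill with lipid once Pparg and Cebpa are switched on. Their DNA is wrapped around nucleosomes, and the stretches that stay accessible are mostly promoters, where transcription starts, and distal elements such as enhancers, where sequence-specific factors bind. AP-1 (dimers of Fos and Jun proteins), TEAD factors with their co-activators Yap1 and Wwtr1, Runx and C/EBP proteins are known enhancer binders of fibroblasts and fat progenitors, whereas NF-Y, SP/KLF and ETS proteins bind many promoters. An open promoter does not by itself show that its gene is transcribed.

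The sequences that carry the main contrasts are given first, all from the RefSeq copy of GRCm38. Among distal sites, those farther than 1 kb from every annotated transcription start site (TSS), the AP-1 heptamer TGANTCA was the most frequent of 12 short motifs searched on both strands. It was found in 57.8% of the strongest 1% of distal sites, in 37.0% of all 96012 distal sites and in 5.35% of 88794 windows of the same 201 bp length placed 2 kb away. These windows lay at higher coordinates than the summits, and those that overlapped any WT peak were left out. The 4 of the 10 strongest distal sites that held the AP-1 heptamer are shown as 151 bases around their summit, with the AP-1 matches in capitals. They lie in an intron of Sfi1, 23.9 kb from the start of Klf6, 154 kb from that of Msrb3 and 6.36 kb from that of Zfp869. A base could count for more than 1 of the motifs.
Sfi1 intron, chr11:3153805-3153955, plus strand: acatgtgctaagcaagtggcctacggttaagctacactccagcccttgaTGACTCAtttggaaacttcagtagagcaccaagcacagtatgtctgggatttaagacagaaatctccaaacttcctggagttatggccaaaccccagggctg
Near Klf6, chr13:5837486-5837636, plus strand: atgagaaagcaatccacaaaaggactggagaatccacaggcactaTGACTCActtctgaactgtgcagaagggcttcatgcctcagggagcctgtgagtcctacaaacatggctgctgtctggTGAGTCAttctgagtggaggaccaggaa
Near Msrb3, chr10:120717241-120717391, plus strand: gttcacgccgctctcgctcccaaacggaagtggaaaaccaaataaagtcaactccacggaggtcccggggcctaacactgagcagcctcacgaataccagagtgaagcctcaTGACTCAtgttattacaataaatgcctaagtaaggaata
Near Zfp869, chr8:69717010-69717160, plus strand: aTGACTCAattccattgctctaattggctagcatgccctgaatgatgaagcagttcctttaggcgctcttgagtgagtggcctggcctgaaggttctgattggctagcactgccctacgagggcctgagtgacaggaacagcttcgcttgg
The site near Klf6 carried 2 AP-1 matches in this window and the other 3 carried 1 each.

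Among promoter-proximal sites, those within 1 kb of a TSS, the NF-Y motif CCAATCA (searched on both strands, so it also reads TGATTGG) set the strong sites apart. It was found in 31.9% of the strongest 1%, in 6.58% of all 23203 promoter-proximal sites and in 2.59% of the lower 50% of them by strength. In replicates 1, 2 and 3 taken singly the share in the strongest 1% was 32.8%, 33.2% and 28.9%. The 3 promoters among the 15 strongest sites that held it are shown as 101 bases around the match, which is in capitals. They belong to Glrx5, which acts in mitochondrial iron-sulfur cluster assembly, to Etfdh, which passes electrons from fatty acid oxidation to the respiratory chain, and to Evi5l, a regulator of Rab proteins. The Etfdh site is also promoter-proximal to 4930579G24Rik, and the Glrx5 site to the non-coding Snhg10, Scarna13 and Mir3069.
Glrx5 promoter, chr12:105032419-105032519, plus strand: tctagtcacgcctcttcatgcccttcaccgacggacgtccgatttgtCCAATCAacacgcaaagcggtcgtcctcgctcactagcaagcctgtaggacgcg
Etfdh promoter, chr3:79628950-79629050, plus strand: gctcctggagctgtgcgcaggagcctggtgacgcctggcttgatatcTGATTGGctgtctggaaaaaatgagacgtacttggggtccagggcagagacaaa
Evi5l promoter, chr8:4166181-4166281, plus strand: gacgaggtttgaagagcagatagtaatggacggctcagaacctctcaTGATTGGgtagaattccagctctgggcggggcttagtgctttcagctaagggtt

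Elements beside 3 genes that mark these cells and beside 2 genes of fat and matrix biology, picked after their values were seen, are shown next because the strongest distal site of each held an AP-1 match. That of Cebpb, the remaining mark, held none. Capitals mark AP-1 (TGANTCA) and TEAD (GGAATG, or CATTCC on the other strand) in 151 bases around the summit. Pdgfra encodes the receptor used to sort fat progenitors, Runx1 and Tead1 encode transcription factors, Pparg encodes the main driver of fat cell differentiation, and Fbn1 encodes fibrillin 1, a matrix protein.
Pdgfra, intergenic, chr5:75208074-75208224, plus strand: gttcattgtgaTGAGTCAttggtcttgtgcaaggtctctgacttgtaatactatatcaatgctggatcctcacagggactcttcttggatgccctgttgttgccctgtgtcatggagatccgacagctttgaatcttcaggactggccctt
Runx1 intron, chr16:92620804-92620954, plus strand: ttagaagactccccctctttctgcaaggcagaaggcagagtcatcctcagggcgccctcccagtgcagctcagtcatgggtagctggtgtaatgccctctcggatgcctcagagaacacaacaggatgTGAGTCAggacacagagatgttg
Tead1 intron, chr7:112720236-112720386, plus strand: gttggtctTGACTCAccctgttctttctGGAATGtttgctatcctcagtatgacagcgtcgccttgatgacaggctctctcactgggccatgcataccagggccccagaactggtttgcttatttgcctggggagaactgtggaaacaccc
Pparg coding exon, chr6:115463086-115463236, plus strand: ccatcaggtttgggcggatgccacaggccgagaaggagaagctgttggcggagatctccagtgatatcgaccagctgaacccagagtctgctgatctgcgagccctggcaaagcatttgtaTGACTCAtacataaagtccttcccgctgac
Fbn1 intron, chr2:125349242-125349392, plus strand: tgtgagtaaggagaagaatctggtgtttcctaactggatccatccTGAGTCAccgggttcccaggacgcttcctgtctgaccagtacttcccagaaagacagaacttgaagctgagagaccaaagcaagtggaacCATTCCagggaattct
The windows of Tead1 and Fbn1 held 1 TEAD match as well as 1 AP-1 match, and the Pparg site held one in its 201 bp window, outside the bases printed. TEAD letters were found in 18.3% of all distal sites and AP-1 and TEAD together in 6.20%. A match of letters is a description and does not show that a factor was bound.

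The widest site of the genome covered the promoter and much of the body of Ccn2, a matricellular growth factor and a standard target of Yap1 and TEAD. It held 4 TEAD matches in 2911 bp, and 3 of them stood in the 120 bases just before the first Ccn2 start, shown here with the matches in capitals. Others of the 15 widest sites held as many TEAD matches or nearly so, with 4 in a site of 2020 bp and 3 each in those near Actg1, at Nab2 and Nemp1, beside Mir21a and near Foxn2.
Ccn2 upstream, chr10:24595322-24595441, plus strand: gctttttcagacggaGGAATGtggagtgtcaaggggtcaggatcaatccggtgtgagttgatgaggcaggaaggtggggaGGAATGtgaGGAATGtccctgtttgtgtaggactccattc
Another of the 15 widest sites ended 732 bp from the hairpin of Mir21a. That microRNA's mature 5p strand is shown from RefSeq with its seed, bases 2 to 8, in capitals.
mmu-miR-21a-5p, chr11:86584120-86584141, minus strand: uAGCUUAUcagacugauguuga

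The lists were cut by the authors at the best 300000 summits, so peak numbers say nothing about differences between libraries. They held 299536, 299433 and 299620 summits in 174731, 177366 and 162877 separate intervals for replicates 1, 2 and 3. Read totals were not analysed here. The median number of Tn5 cuts piled up at a summit was 24, 20 and 30, and the lowest was 10, 10 and 12. The median pileup was highest in replicate 3 and lowest in replicate 2, whereas the most common local background was 2.42, 2.51 and 2.41 cuts, highest in replicate 2. The depth of the libraries is therefore not ordered here. Of the merged intervals, 29.6% were listed in 1 library, and those had a median best rank at the 12.2 percentile of their list, against 30.1 for those listed in 2 and 70.7 for the sites. The value is the best over the libraries that listed an interval, so it rises with their number by construction.

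Strength was measured as the mean over libraries of the percentile rank of a site's best −log10 p among all summits of that library, so that 100 is the strongest. Across the 119215 sites the Spearman rho of these percentiles between libraries was between 0.88 and 0.91. These are correlations over sites that share sequence and mappability, given as a description. The median site was 416 bp wide, and the narrowest and widest were 73 and 2911 bp. Only 25177 sites (21.1%) were a single summit in every library, and 4219 (3.54%) had a mean of 5 or more summits. Together the sites covered 56.6 Mb. Chromosome 11 was the densest with 63.6 sites per Mb and the X had 13.2.

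Promoters were a minority of the sites and the bulk of the strong ones. In all, 19.5% of sites were promoter-proximal, 43.4% lay in introns, 34.2% between genes and 2.94% in exons. Of the 1192 strongest sites (1%), 80.9% were promoter-proximal, of the strongest 0.1% the share was 92.4%, and of the lower 50% it was 14.1%. Taken one library at a time the share among the strongest 1% of intervals was 76%, 76% and 76.6%. Ranked instead by fold enrichment, which sets the cuts at a summit against the local background of the same library, 58.2% of the strongest 1% were promoter-proximal. The distal sites lay a median of 16.5 kb from a TSS, and 17.1% of them were over 50 kb away. At least 1 promoter-proximal site was found for 13644 of 21938 protein-coding genes (62.2%), and the best such site of these genes had a median percentile of 91.5.

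**Figure D1:**
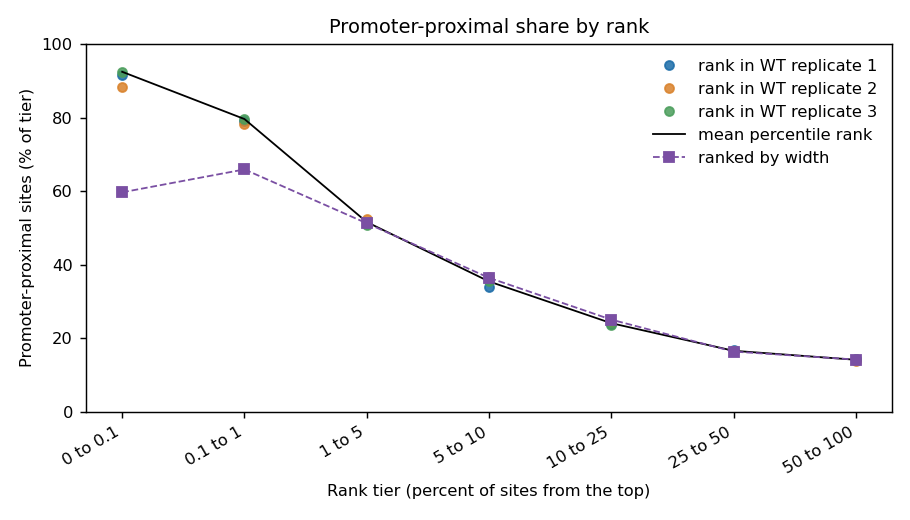
Share of sites that lie within 1 kb of a TSS, in percent, by bin of strength (mean percentile of −log10 p) and by bin of width. Ranked by strength the share falls from 92.4% in the strongest 0.1% to 14.1% in the lower 50%.

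Of the 15 strongest sites 11 were promoter-proximal. Only 2 of the 15 were also among the first 15 by fold enrichment, so the names depend on the measure. Prmt5, an arginine methyltransferase, had a fold enrichment of 30.6, 31.7 and 32.4 in replicates 1 to 3 and ranked second. Cyth2, an exchange factor for ARF GTPases, had 30.1, 29.3 and 36.2. Fam160a2 had 30.04, 26.01 and 29.9. The median site had a mean fold enrichment of 6.88, and the rank itself places these promoters above it.

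The other strong promoters lay lower on this scale. Rab40c, a small GTPase, had a fold enrichment of 22.8, 22.3 and 25. Hsd17b12, which acts in the elongation of very long chain fatty acids, had 24.2, 22.5 and 25.7. Tomm40, the channel of the mitochondrial import machinery, had 18.6, 17.6 and 18.6 over a site of 1258 bp. Replicate 3 was the highest or level with the highest for each of these. Glrx5 had 21.7, 20.1 and 22.8, Etfdh 21.7, 21.9 and 22.9, and Evi5l 19.3, 19.8 and 19.9. The 3 promoters that carried the CCAATCA match shown above therefore varied little between libraries. Ankhd1, which encodes an ankyrin repeat protein, had 23.8, 21.2 and 21.7, and its site was 1198 bp wide with 5, 5 and 6 summits. Gm21887, near the end of the X, had 23.8, 22.1 and 24.8, but its stretch has 2 near-identical copies in the genome, so its cuts cannot be assigned to 1 place.

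**Figure D2:**
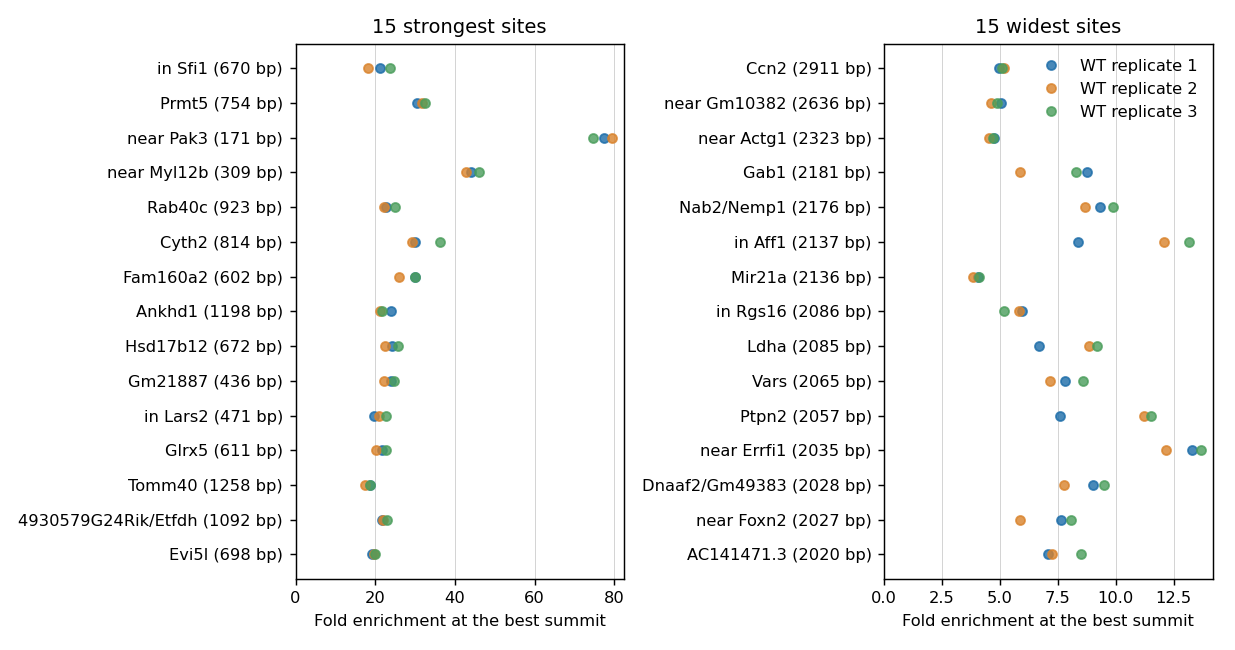
Fold enrichment (cuts at the summit over local background, per library) of the 15 strongest and the 15 widest sites, with 1 point per library and a separate scale in each panel. Ccn2, the widest, has 4.95 to 5.17 and Errfi1, the highest of the widest, 12.2 to 13.7, while Prmt5, the strongest promoter, has 30.6 to 32.4.

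Of the 15 strongest sites 4 were distal, and those near Pak3 and Myl12b were narrower than any of the 11 promoters. The very strongest, in an intron of Sfi1, which encodes a centrosomal protein, had a fold enrichment of 21.1, 18.1 and 23.6 and a pileup of 701, 565 and 873 cuts. Its 670 bp also had 2 copies in the genome. The third strongest, 35.5 kb from the start of Pak3, was only 171 bp wide with 1 summit in each library. Its fold enrichment of 77.4, 79.3 and 74.6 was the highest of all sites. Of its bases 31.6% were marked as repeat in the genome sequence. Copies were searched only in the assembled genome, and what copies missing from it add to this value was not tested. The fourth, 14.8 kb from Myl12b, was 309 bp wide with 44.0, 42.7 and 46.0. The eleventh lay in an exon of Lars2, the mitochondrial leucyl-tRNA synthetase, with 19.7, 21 and 22.7. Near Pak3 replicate 2 had the highest pileup (472, against 395 and 353), and at the other 3 replicate 3 did.

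Of the AP-1 examples shown above 3 were distal sites of the next ranks. The site 23.9 kb from Klf6, a zinc finger factor of early adipogenesis, had a fold enrichment of 28.3, 26.5 and 32.1. That near Msrb3, a methionine sulfoxide reductase, had 25.9, 24.2 and 28.1. The site near Zfp869 had 25.1, 17.8 and 22.9 and was the least even of them. A site near Lrfn3 had 31.7, 29.02 and 32.9, and one 96.0 kb from Rab39b on the X had 27.5, 28.9 and 28.5. Neither of these 2 held an AP-1 match. The strongest 1% of distal sites were spread over many genes: the 960 sites had 892 nearest protein-coding genes, of which 62 had 2 or more such sites and none had more than 3.

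Some of the narrow strong sites shared sequence with each other. The sites near Myl12b and in an intron of Gphn, which encodes the scaffold protein gephyrin, aligned over 83 and 244 bp to the Lars2 exon site with 97.6% and 97.5% identity. The Gphn site had a fold enrichment of 36.6, 38.8 and 38.1. In all, 9 other sites aligned to the Lars2 site over at least 50 bp, of which 8 were distal, 6 were in the strongest 1% of distal sites and 0 were in the lower 50% of distal sites. Of 16 other genomic stretches that aligned to it, 9 overlapped a site and 7 did not. A 59-base stretch of the aligned part is shown for 3 of them, read in the direction of the Lars2 site, to let the reader see how near the copies are.
Near Myl12b, chr17:70963682-70963740, plus strand: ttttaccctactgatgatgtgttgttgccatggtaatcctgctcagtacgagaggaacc
Near Cdh20, chr1:102628282-102628340, minus strand: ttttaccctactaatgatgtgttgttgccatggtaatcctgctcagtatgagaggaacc
Near Kpna1, chr16:35981661-35981719, minus strand: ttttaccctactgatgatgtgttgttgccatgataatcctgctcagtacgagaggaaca
Cuts in such copies cannot be assigned to 1 place with certainty, and their part in the rank of these sites was not tested.

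A pair of narrow strong sites did not align to the Lars2 site. The interval near Pak3 is printed whole, since its fold enrichment was the highest. The site of 189 bp near Abcb11 follows it, with a fold enrichment of 48, 51.2 and 47.7 and a pileup of 246, 395 and 235 cuts. In the second sequence the capitals mark 129 bases identical to mitochondrial DNA, whose reads the authors removed.
Near Pak3, chrX:143482973-143483143, plus strand: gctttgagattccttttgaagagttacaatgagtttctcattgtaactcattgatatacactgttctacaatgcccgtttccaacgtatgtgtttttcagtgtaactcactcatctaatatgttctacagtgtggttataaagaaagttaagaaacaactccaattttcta
Near Abcb11, chr2:69355508-69355696, plus strand: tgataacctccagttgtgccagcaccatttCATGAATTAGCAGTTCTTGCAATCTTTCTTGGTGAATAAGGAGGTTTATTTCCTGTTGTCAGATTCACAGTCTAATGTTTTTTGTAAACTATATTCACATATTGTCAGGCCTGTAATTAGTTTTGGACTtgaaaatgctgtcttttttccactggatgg
Of all sites, 13 aligned to mitochondrial DNA, among them 2 of the strongest 100 distal sites and 0 of the strongest 100 promoter-proximal sites. What these copies add to the values was not tested.

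Width and strength were related, but most of the strongest sites were not among the widest. The Spearman rho of width and strength over the 119215 sites was 0.60, again a description across sites, and 39 sites were in both the strongest 1% and the widest 1%, which is 3.27% of each against 1% of all sites. The widest 1% were at least 1262 bp wide, had a median fold enrichment of 11.3 against 22.4 for the strongest 1%, and were promoter-proximal in 65.3% of cases. Of the 39, 37 (94.9%) were promoter-proximal, and their mean fold enrichment lay between 12.1 and 24.5. They included Ngdn (22.4, 19.3 and 22.8 in a site of 1359 bp), Ndufb5, a subunit of respiratory complex I (24.9, 22.7 and 25.04 in 1304 bp), Snrnp70, of the U1 splicing particle (24.99, 22.5 and 26.02 in 1392 bp), and P4hb, a protein disulfide isomerase that also serves collagen folding (18.6, 16.97 and 20.6 in 1300 bp).

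**Figure D3:**
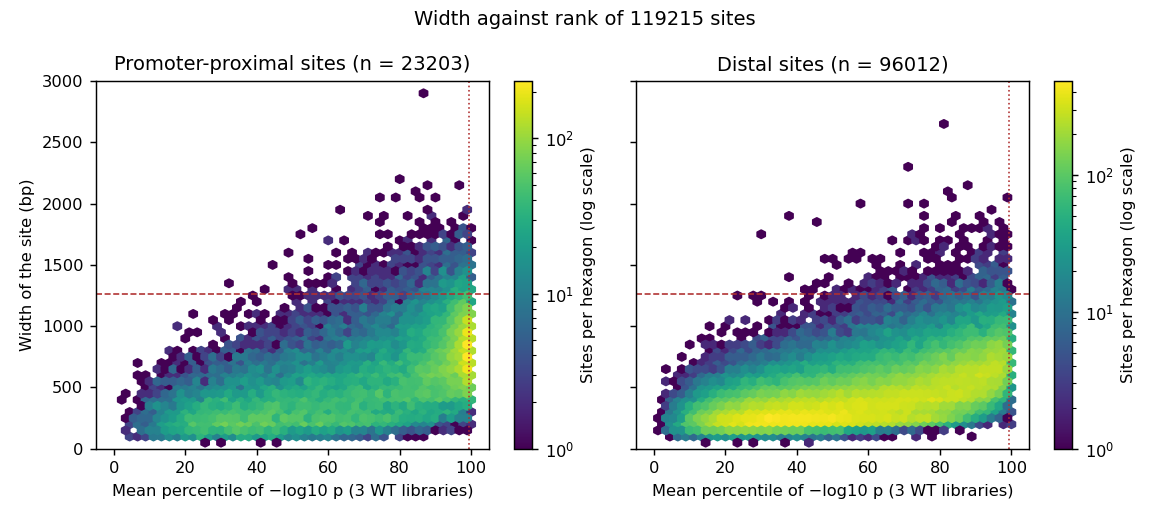
Width of each site in bp against its strength (mean percentile of −log10 p), for promoter-proximal and for distal sites. The dashed line marks the width of the widest 1% (1262 bp) and the dotted line the lowest percentile of the strongest 1%, and 39 sites lie beyond both.

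The 15 widest sites held many summits and were weaker than the strongest ones, although 10 of them had a mean fold enrichment above the 6.88 of the median site. Ccn2 had a site of 2911 bp (chr10:24595236-24598146) with 17 summits in every library and a fold enrichment of only 4.95, 5.17 and 5.09. Its summits stood a median of 142, 166 and 127 bp apart. The second widest, 2636 bp, lay 4.51 kb from the start of Gm10382, with 5.05, 4.60 and 4.88. The third, 2323 bp and 3.57 kb from Actg1, which encodes cytoplasmic gamma-actin, had 4.76, 4.52 and 4.68. Each of these 3 was nearly level across the libraries. The site beside Mir21a, a microRNA abundant in fibroblasts, was 2136 bp wide with a fold enrichment of 4.05, 3.82 and 4.08 and 15, 13 and 13 summits. It lay on the 3′ side of the hairpin and counts as promoter-proximal only because the hairpin's own start is annotated as a TSS.

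Among the other wide promoters were signalling and metabolic genes. Gab1, a docking protein of receptor tyrosine kinases, had 2181 bp with a fold enrichment of 8.75, 5.86 and 8.30. The shared promoter of Nab2, which represses the early growth response factors, and Nemp1 had 2176 bp with 9.30, 8.69 and 9.89. Ldha, the lactate dehydrogenase of glycolysis, had 2085 bp with 6.70, 8.84 and 9.18. Vars, a tRNA synthetase, had 2065 bp with 7.79, 7.16 and 8.57, although its site has 4 near-identical stretches in the genome. Replicate 2 was the lowest for Gab1 and not for Ldha, so the libraries held no common order. Ptpn2, a tyrosine phosphatase, had 2057 bp with 7.59, 11.2 and 11.5, and Dnaaf2 had 2028 bp with 9.04, 7.76 and 9.48.

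Distal members of the widest 15 were fewer. A site of 2035 bp lay 54.1 kb from Errfi1, a feedback inhibitor of EGF receptors, and was the only one of the 15 above the 99th percentile, with a fold enrichment of 13.3, 12.2 and 13.7. It held 4 AP-1 matches, and 2 near-identical stretches of it are in the genome. A site of 2086 bp in an intron of Rgs16, a regulator of G protein signalling, had 5.96, 5.82 and 5.19. One of 2137 bp overlapped Aff1, a subunit of elongation complexes, with 8.37, 12.1 and 13.2. Its summit lay outside the gene, in a window of 75.1% GC. It counts as distal because the nearest transcript start used here was 33356 bp away, although the site overlapped the gene. A site of 2027 bp lay 183 kb from Foxn2 with 7.62, 5.86 and 8.08. The last of the 15, of 2020 bp, was promoter-proximal only to AC141471.3, which is not protein-coding, and had 7.05, 7.26 and 8.48.

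Neighbouring sites were also stitched across gaps of up to 12498 bp into 42502 loci, 44.4% of which were a single site. By the base pairs covered by sites, the leading locus ran from chr15:101077159-101293444 with 43 sites covering 26205 bp. It holds Acvrl1 and Acvr1b, receptors of the TGF-beta family, and Nr4a1, an immediate early nuclear receptor. Next came a locus on chromosome 8 with Crtc1 and Gdf15, a stress cytokine (48 sites, 25225 bp), and one on chromosome 2 with Rxra, the partner of Pparg, and Col5a1, a fibrillar collagen (50 sites, 23419 bp). Others of the first 10 held Efna1 and Adam15, Lmna, Lrp1 and Stat6, Nfix, Socs5, and Tgfbr3. The Tgfbr3 locus, of 36 sites, had only 1 promoter-proximal site, whereas the locus with Efna1 had 26 among its 50. None of the 15 widest sites lay in the 15 loci with the most covered base pairs.

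The motifs split the sites by position. In distal sites the TEAD letters were found in 18.3% of all sites and 19.9% of the strongest 1%, against 10.7% of the windows 2 kb away. RUNX letters (TGTGGT) were found in 20.4%, 21.04% and 15.2%, C/EBP letters (TTGCNNAA) in 13.7%, 12.3% and 8.14%, and E-box letters (CAGCTG) in 14.6%, 18.4% and 8.56%. Of these 5, AP-1 was the one whose share differed most between the lower 50% (32.5%) and the strongest 1% (57.8%) of distal sites. In replicates 1, 2 and 3 taken singly the share in the strongest 1% was 57.3%, 56.7% and 58.5%. The CTCF motif was found in 7.45% of all distal sites, 6.42% of the lower 50%, 3.23% of the strongest 1% and 1.39% of the windows 2 kb away. With the strongest 1% chosen by fold enrichment its share there was 5.10%. The GC content of the windows was 44.3% in the windows 2 kb away, 46.3% in the lower 50% and 49.8% in the strongest 1%, and its part in these shares was not tested.

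In promoter-proximal sites AP-1 was scarce where the signal was strong, with 14.6% of the lower 50% and 1.72% of the strongest 1%, which is 4 of 232 sites. In replicates 1, 2 and 3 taken singly the latter was 3.88%, 1.29% and 2.59%. SP/KLF letters (GGGCGGG) had shares of 17% in the lower 50% and 37.5% in the strongest 1%, and ETS letters (CCGGAA) 7.63% and 22%. Both were more frequent in the sites between the strongest 1% and 10%, at 38.3% and 27.9%. The median GC content of the windows was 54.7% in the lower 50%, 60.7% between the strongest 1% and 10%, and 57.2% in the strongest 1%. Position within the window also differed. Of the AP-1 matches in distal sites 32.2% lay within 25 bp of the summit, an area holding 25.4% of the positions, and of the CTCF matches 7.96% did. In the strongest 1% of distal sites 17.3% of the AP-1 matches did. The TEAD share was 16.8% in distal sites with AP-1 and 19.2% in those without, and in the strongest 1% it was 20% and 19.8%.

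**Figure D4:**
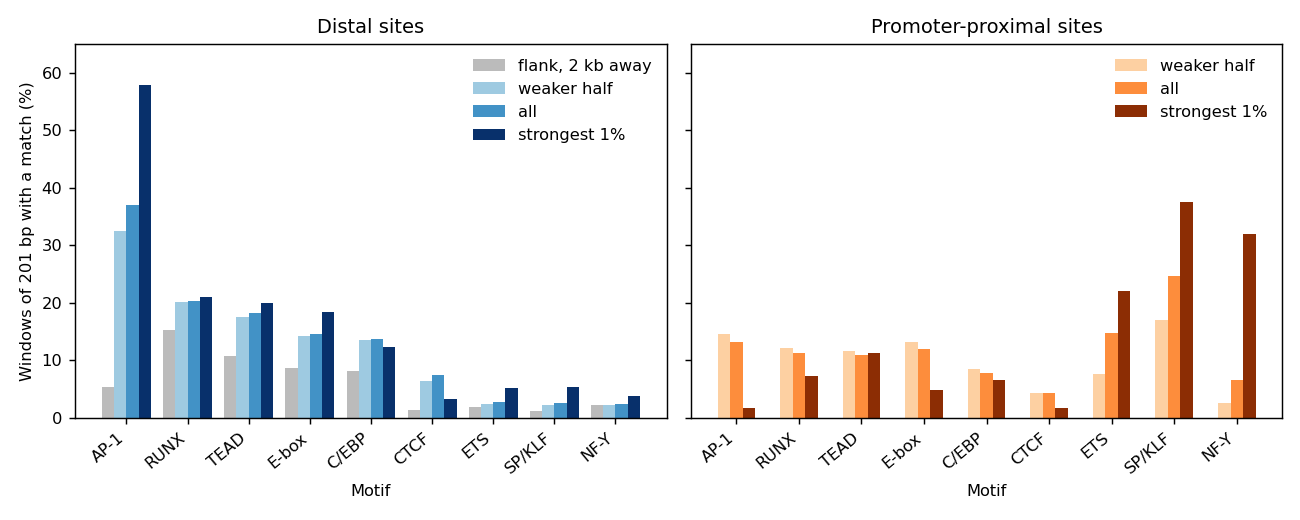
Share of 201 bp windows around the summit that hold each motif, in percent, for distal and promoter-proximal sites by strength. AP-1 reaches 57.8% in the strongest 1% of distal sites and NF-Y 31.9% in the strongest 1% of promoter-proximal sites.

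The label of the cells was checked against 18 lists of marker and pathway genes (213 genes), each read against the 62.2% of all protein-coding genes with a promoter-proximal site. All 4 genes given as marks of these cells had one. Pdgfra had a fold enrichment of 5.22, 5.40 and 4.54 and stood at the 68.9 percentile. Its site, chr5:75155727-75155992, lay beside an annotated start inside the gene, which begins at 75152292. Cebpb, an early factor of adipogenesis, had 4.45, 4.82 and 5.38 at 78.7. Runx1 had 7.87, 7.39 and 8.63 at 90.6, in a site that also lay beside a start inside the gene. Tead1 had 9.43, 7.68 and 9.36 at 83.3. By definition a site was listed in all 3 libraries, so this is no separate result for these genes. Each of the 4 stood below the median of 91.5 for genes with such a site.

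Of 17 fat progenitor genes 16 had a promoter-proximal site. With only the best 50000 lines of each list 15 of the 35 progenitor and commitment genes had one, against 38.2% of all protein-coding genes. Lum, a matrix proteoglycan, was the exception. Vim, the intermediate filament of mesenchymal cells, had 8.20, 9.81 and 8.46 over 1377 bp, Pdgfrb 10.9, 9.55 and 9.57, and Ly6a, which encodes the progenitor antigen Sca-1, 9.87, 9.71 and 10.9. The lowest of the list was Dlk1, the preadipocyte factor, at the 22.3 percentile with 3.80, 3.13 and 6.16. The list ran from weak to strong, and its median of 70.5 was below the 91.5 of all genes with a site and below the medians of the mural genes (84) and of the 3 macrophage genes (82.7) with a site.

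Of 18 transcription factors of adipose commitment 17 had one, at a median of 93.1. The lowest were Gata2, Zfp423 and Prdm16 at the 42.8, 57.4 and 57.7 percentiles. Ebf1, an early B cell factor that also acts in adipogenesis, had 16.9, 15.2 and 17.9, and 58 sites in its gene body and the 10 kb around it, against a median of 3 per protein-coding gene. Cebpa had 10.5, 13.4 and 12.8 over 1092 bp. Klf5 had 15.9, 13.9 and 17.5, and Nr3c1, the glucocorticoid receptor, 12.502, 11.2 and 14.9. Gata3, which restrains adipogenesis, had 19.4, 11.9 and 24.3 and was the least even of those whose fold enrichment is given here. Pparg was the exception: each library listed a peak within 1 kb of a Pparg start, but no interval there was listed in all 3.

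Pparg was open elsewhere. It had 9 distal sites, the strongest in a coding exon (shown above) with a fold enrichment of 20.3, 19.7 and 20.8 and a width of 652 bp. Each of the 4 marks had a distal site ranked above its promoter, although this takes the best of several. The best of 8 distal sites of Pdgfra had 20.2, 18.1 and 27.8, and the best of 28 of Runx1 had 10.5, 9.25 and 11.7. The best of 23 of Tead1 had 18.8, 15.4 and 18.3, and the best of 4 of Cebpb had 12.1, 8.52 and 13.2. For Pdgfra the distal site was well above the promoter in every library, and for Runx1 the ranges lay close. Fbn1, of the matrix list, had 45 sites in and around its gene, with 18.8, 16.7 and 17.5 at the strongest distal one. AP-1 letters were found in 38.4% of the 73 distal sites of the progenitor genes and in 32.9% of the 219 of the commitment factors, close to the 37.0% of all distal sites.

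The AP-1 and TEAD genes themselves had open promoters. Of 10 AP-1 genes 8 had a promoter-proximal site, Jun with 8.81, 9.33 and 9.49, Fosl2 with 10.3, 11.2 and 9.85, and Atf3 with 12.3, 11.1 and 13.9. Batf and Batf3, which act mainly in immune cells, had none. All 12 TEAD and Yap genes had one, among them Wwtr1, the co-activator Taz, with 10.7, 9.47 and 11.7 over 1533 bp, and Ankrd1, a Yap target, with 12.3, 12.6 and 17.3. Ccn1, a target like Ccn2, had a low 3.21, 2.97 and 3.28. Ccn1 and Ccn2 were the 2 lowest of the list by fold enrichment.

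Of 17 mesenchymal transcription factors 16 had one, at a median percentile of 79.8, below the 91.5 of all genes with a site. Tbx18 was the strongest of them at 97.6, and Nfia, Prrx1 and Osr1 were the weakest at 52.1, 57.2 and 61.0. Tbx18 had 19.9, 14.3 and 19.6 and Tbx15, which patterns fat depots, 13.5, 11.9 and 14.4, while Tcf21, a mesodermal factor, had no promoter-proximal site and no library listed a peak there. All 17 matrix genes had one, and Col6a2, of collagen VI, was the highest by fold enrichment with 15.2, 14.6 and 19.8. Col3a1 was the lowest by percentile with 3.85, 4.24 and 5.35.

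Genes of mature and of thermogenic fat cells split. Of 16 mature adipocyte genes 10 had a promoter-proximal site, near the share of all genes. Lipe, hormone-sensitive lipase, had 24.4, 17.7 and 21.5, Fabp4, the fatty acid carrier, 17.4, 15.9 and 17.4, and Slc2a4, the insulin-responsive glucose transporter, 15.02, 14.3 and 15.2. Adipoq, Plin1, Lep, Cd36, Cidec and Cfd had none, and for 5 of these 6 no library listed a peak near a start. Of 14 thermogenic genes 9 (64.3%) had one, also near the share of all genes, at a median percentile of 81.8. Ppara was the highest of them at 91.1, and Tmem26, Tbx1 and Adrb3 were the lowest at 23.4, 24.8 and 39.3. Ppargc1a, the co-activator of mitochondrial biogenesis, had 10.1, 7.29 and 10.9, and Ppara 16.5, 13.5 and 17.7, while Ucp1, the uncoupler of brown fat, had no site in its gene or the 10 kb around it. Adipoq, which had no promoter site, had 6 distal ones, the strongest with 21.8, 17.2 and 18.8.

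Cycle and general genes were near the top of the scale. All 8 cell cycle genes had a promoter-proximal site with a median percentile of 98.2, among them Top2a, the topoisomerase of mitosis, with 27.2, 25.1 and 31.2 and Mcm5, of the replication helicase, with 24.1, 21.4 and 24.1. Ccnd1 was the lowest of them at 60.8. All 10 general genes had one, at a median of 97.1, with Rplp0, a ribosomal protein, at 25.6, 23.5 and 28.9.

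Markers of other cells the culture could hold differed by list. Of 12 macrophage and leukocyte genes 3 had one. Csf1r, the receptor of a macrophage growth factor, had 14.8, 13.6 and 14.7 at the 95.9 percentile, above the promoters of all 4 marks of these cells. Lyz2, a lysozyme, stood at 82.7 and Cd68 at 74.5, while Ptprc, Adgre1, Spi1 and the other 6 had none. Of 10 epithelial genes 2 had one, and Epcam had none. Of 8 muscle genes 1 had one, of 6 mesothelial genes 2, and of 10 genes of unrelated tissues 1. Endothelial genes had 7 of 10, near the share of all genes, with Tek at 18.2, 15.4 and 16.7 and Pecam1, whose site also serves Milr1, at 16.9, 12.2 and 17.2, while Cdh5, Emcn and Vwf had none. Tek and Pecam1 were the highest of this list, whose median of 52.9 was below the 91.5 of all genes with a site, and Erg was the lowest at the 22.05 percentile. Mural genes had 7 of 9, with Acta2 at 13.01, 8.91 and 12.6 and Myh11 at 16.8, 17.2 and 20.8, but Mcam, Cspg4 and Rgs5 stood at the 11.6, 19.3 and 47.2 percentiles, and Notch3 and Des had none. Schwann and neural genes had 5 of 9. In bulk libraries a few cells with a very open site and many cells with a weakly open one cannot be told apart, and the part of other cells in these values was not tested.

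**Figure D5:**
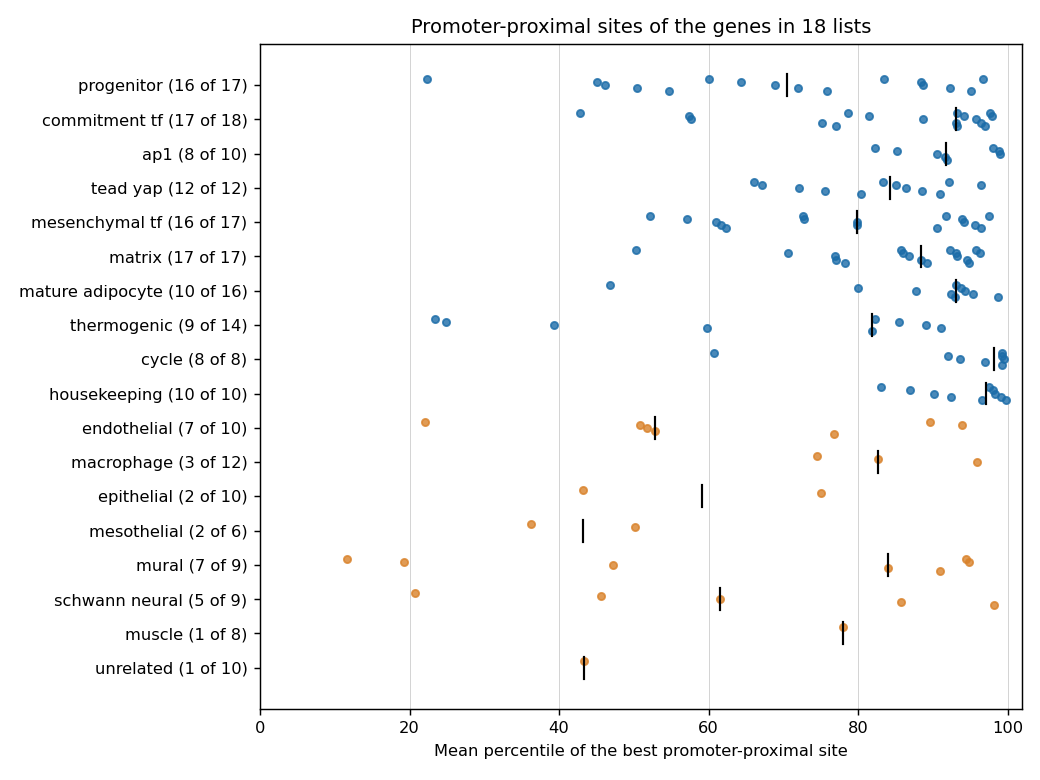
Strength (mean percentile of −log10 p) of the best promoter-proximal site of each gene of the 18 lists, 1 point per gene, with a black bar at the list's median and the number of genes with a site. Blue marks fat, mesenchymal and general lists and orange the lists of other cell types. The cell cycle list has its median at 98.2 and the progenitor list at 70.5.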

How the data were processed

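ATAC-seq peak lists of 3 WT libraries at day 0 were used. Per the submitters' processing notes and the study's methods, the reads were trimmed with cutadapt 1.18, aligned to mm10 with Bowtie2 2.3.4.3, and freed of duplicates and mitochondrial reads. The authors called peaks per library with MACS2 (its version is not given in the sources used here), with a p of 0.01 in the list names although the methods give default settings, kept the best 300000 and filtered a blacklist. The deposited fold enrichment is a ratio of summit signal to local background, and the deposited −log10 p and −log10 q values are not corrected for depth. Pileups were recovered from both within 0.02 of the deposited −log10 p.

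Lines of the 3 lists were merged at 1 bp overlap with Python 3.11.15 (pandas 2.3.3), ranked by the percentile of −log10 p, and annotated to GENCODE starts. The genome was read with samtools 1.23.1 and aligned with BLAST 2.17.0. Named were the 15 strongest, 10 strongest promoter-proximal, 10 strongest distal and 15 widest sites, 10 stitched loci, and the genes of 18 lists. Members and lists were chosen with earlier results of these data known. The scripts were tested on simulated data. With 1 group no comparison between groups was made, and no p-value is given. Alternatives were another rank, threshold, distance and window, and each library left out. A few genes are not reported here.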

Additional observations from a re-analysis of the deposited data

How the results depend on the processing

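Of 87 alternative values for 10 results, 46 moved by less than the spread between libraries or within 1.5 times of a count, and 41 moved further. The 119215 sites became 24964 with the best 50000 lines of each list and 61905 with a −log10 q of at least 10. The median width of 416 bp became 358 bp in at least 2 of 3 libraries, 670 bp with 50000 lines and 547 bp with the q limit, and without 1 replicate it lay between 340 and 372 bp. Windows of fixed size around summits give no width. The promoter-proximal share of 19.5% became 18.2%, 35.3% and 24.4% in the same order and 21% in fixed windows. It was 24% at 2 kb and 16% at 500 bp, and between 18.97% and 19.7% without 1 replicate. That of the strongest 1% (80.9%) became 78.2%, 93.2%, 87.2%, 80.4%, 81.5% (2 kb) and 80.5% (500 bp), lay at 79.3% to 80.4% without 1 replicate, and fell to 58.2% ranked by fold enrichment. By that rank 473 of the 1192 strongest sites (39.7%) were among the first 1192, and 2 of the 15 strongest among the first 15. That of the widest 1% (65.3%) became 72.4% with 50000 lines. Protein-coding genes with a site (62.2%) became 65%, 38.2%, 53.0%, 65.7% (2 kb) and 59.6% (500 bp), and 62.8% to 63.4% without 1 replicate. The progenitor and commitment genes (33) became 15 with 50000 lines, and the leukocyte, endothelial and epithelial markers (12) became 3, or 7 with the q limit. The AP-1 share of the strongest 1% of distal sites (57.8%) became 51.2% with 50000 lines and 59.4% by fold enrichment, and the CTCF share (3.23%) became 3.89% in at least 2 of 3 libraries and 5.10% by fold enrichment. The cause of these moves was not tested, beyond the fewer lines pooled. No paired analysis was possible because only 1 group was used.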

Other observations

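Some loci outside the named sites were dense in sites. Lpp, a cell adhesion protein, had 77 sites over its gene and the 10 kb around it, and Rora, a nuclear receptor, had 79. Foxp1, a forkhead repressor, had 76. Ebf1, at 58, had 14.1 sites per 100 kb, against 12.4 for Lpp, 12.3 for Foxp1 and 10.5 for Rora. Dst, a cytolinker, had 65 sites and 15.5 per 100 kb. These are examples and not the leading genes: Pde4d, a longer gene, had 103 sites at 6.76 per 100 kb, and Pakap had 16.1 per 100 kb. Long genes have room for more sites.

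A stitched locus that overlapped no protein-coding gene, chr6:31032926-31159649, held 36 sites covering 16403 bp and the microRNAs Mir29a and Mir29b-1, which are known to repress collagen messages. Its strongest site stood at the 98.5 percentile, and AP-1 letters were found in 10 of its 36 sites (27.8%), against 32.4% of all sites. These genes and this locus were picked after their values were seen.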
